A study of Mus musculus with 16 samples.

Results

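Among the genes whose change between day 2 and day 4 differed between P14 and WT cells, most moved less far in P14 cells. The cells were being induced to become epiblast-like. The contrast behind this description is the P14 by stage interaction: the change in P14 cells (day 4 minus day 2, called the P14 step here) minus the same change in WT cells (the WT step). It was taken over every gene with a symbol in the deposited expression table and rests on 8 of the 16 libraries of the series, 2 in each of 4 groups. All 8 came from E14tg2a, a line of mouse embryonic stem cells, induced in N2B27 medium with bFGF at 12 ng/mL on fibronectin. The 4 groups are P14 cells at day 4, P14 cells at day 2, WT cells at day 4 and WT cells at day 2. P14 was matched by elimination to the Prdm14-overexpressing cells of the series, and the vector or promoter that drives Prdm14 is not given in the sources used here. No clones or separate cultures are named. The p-values therefore reflect only the spread between libraries of a group, estimated over all 16 libraries of the series, and that spread may be technical. An effect of Prdm14 cannot be told apart from other differences between the P14 and WT lines. Another kind of cells, labelled DKO and matched to the cis knockout of Prdm14, has 4 libraries at the same days, which serve below for comparison. Those libraries held more Prdm14 than WT libraries of the same day, 583 normalized counts on average at day 4 and 1310 at day 2, so they are called the libraries labelled DKO throughout.

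Prdm14 is a zinc finger regulator that protects the naive state of mouse embryonic stem cells and takes part in specifying germ cells. In mouse embryonic stem cells it works with the corepressor Cbfa2t2 and with Polycomb repressive complex 2, and its known repressed targets include the FGF receptor gene Fgfr1 and genes of the de novo DNA methyltransferases. As naive cells become epiblast-like cells, the naive network around Nanog, Esrrb and the Klf factors is shut down, and with longer culture genes of the germ layers come on.

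Values are normalized read counts, and steps and interactions are differences of log2(normalized count + 4), as deposited. The transcript counts come from total RNA. The 8 libraries held 20696332 to 25957870 reads. Each interaction was tested with limma's moderated test in 1 fit over all 16 libraries, with p-values adjusted by Benjamini and Hochberg's method over 21450 genes and a threshold of 0.05. A positive interaction means that a gene rose more, or fell less, in P14 than in WT cells. The offset of 4 makes equal fold changes unequal on this scale in genes with low counts, so interactions of such genes depend on the scale.

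Prdm14 itself, on chromosome 1, had 7054 and 8014 normalized counts in P14 cells at day 4 and 11036 and 10669 at day 2, against 219 and 166 in WT cells at day 4 and 625 and 712 at day 2. All P14 libraries were above all WT libraries, and within each kind of cells the day 4 libraries were below the day 2 libraries. Prdm14 fell by 0.53 in P14 cells (adjusted p = 0.0044) and fell by 1.79 in WT cells (adjusted p = 1.7e-08). The interaction was 1.26 ± 0.17 (SE; adjusted p = 0.00029). The table does not separate reads of the introduced copy from those of the cell's own gene.

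The labelled cell types were checked against their markers. The summed level of 5 pluripotency markers was 5854 to 6092 normalized counts in P14 cells at day 4 and 10300 to 11470 at day 2, against 3803 to 4200 in WT cells at day 4 and 7599 to 7991 at day 2. Sox2 and Zfp42 carried most of it. Pou5f1, the defining pluripotency factor, was near 0 in all 8 libraries, with 0 to 11.9 normalized counts, while Sox2 had at least 2667. How reads of Pou5f1 were assigned is not stated, so these values are given as listed and not as a lack of expression. The sum of 4 markers of epiblast-like cells was 1060 to 1261 in P14 cells at day 4 and 1207 to 1239 at day 2. In WT cells it was 2770 to 2822 at day 4 and 3420 to 3731 at day 2. Among these markers, Fgf5 was listed at 0 to 37.9 normalized counts and Dnmt3b at 774 to 2591. Otx2 was listed at 2.71 to 182 and Pou3f1 at 204 to 943. Dnmt3b and Pou3f1 carried most of the sum, while Fgf5 and Otx2 were lower in WT than in P14 cells at day 4. At that day Fgf5 had 7.31 and 8.05 in P14 and 2.16 and 0 in WT cells. Otx2 had 51.2 and 76.5 in P14 and 10.8 and 2.71 in WT cells. Markers of other cell types were present in all 4 groups. The sum of 5 primitive endoderm markers was 215 to 221 in P14 cells at day 4 and 82.8 to 116 at day 2, against 1035 to 1118 in WT cells at day 4 and 1225 to 1511 at day 2. The sum of 4 neural progenitor markers was 1180 to 1501 in P14 cells at day 4 and 698 to 708 at day 2, against 3118 to 3303 in WT cells at day 4 and 992 to 1185 at day 2. The 3 fibroblast markers analysed summed to 32.2 to 33.8 in P14 cells at day 4 and 47.1 to 49.2 at day 2, against 132 to 133 in WT cells at day 4 and 37.9 to 55.6 at day 2. No marker analysed was at 0 in both libraries of a group. The part of such cells in the results below was not tested, and in bulk RNA fewer cells of a type cannot be told apart from less RNA per cell.

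The interaction passed the threshold in 1303 of 21450 genes (6.07%). It was positive in 575 (2.68%), with a median of 1.17, and negative in 728 (3.39%), with a median of -1.38. The median over all genes tested was 7.5e-05. All 1303 kept 1 sign in each of the 16 ways of taking 1 library per group. This fixed in advance the sign in any set without 1 library, whose estimate averages some of those ways. When each library of the 4 groups was left out in turn, the sign was kept in all 1303 and the call in 575. The number of calls was 804 without P14 day 4 replicate 1, 746 without WT day 4 replicate 2, 809 and 783 without WT day 2 replicate 1 and replicate 2, and 2054 without P14 day 2 replicate 2. The P14 day 2 replicates lay furthest apart, with 7.17% of genes differing by more than 1 on the log2 scale, against 4.03% to 4.43% in the other 3 groups. The split into positive and negative calls depended on scaling: with libraries centred on their median gene, 720 of 1315 calls were positive.

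The called genes fall into a few shapes by the signs of their steps. Among the 575 positive interactions, 309 had 2 negative steps with the smaller in P14 cells, 204 had a negative WT step and a P14 step at or above 0, and 61 had 2 positive steps with the larger in P14 cells. Among the 728 negative interactions, 358 had 2 positive steps with the smaller in P14 cells, 321 had a positive WT step and a P14 step at or below 0, and 49 had 2 negative steps with the larger in P14 cells. The P14 step was the smaller in size in 1019 of the 1303 (78.2%), against 12528 of all 21450 genes (58.4%). Because the 1303 were picked by the difference of these same 2 steps, the shares are a description and not a test. The P14 step passed the threshold in 5091 genes (23.7%), 2617 higher (12.2%) and 2474 lower (11.5%), and the WT step in 7380 (34.4%), 3929 higher (18.3%) and 3451 lower (16.1%). This balance depended on scaling: the higher calls were 51.4% of all P14 steps called and 53.2% of all WT steps called, but 37.5% and 36.2% with libraries centred on their median gene and 61.7% and 63.0% with equal totals. Across all genes the 2 steps, which share no library, correlated at 0.63, a description over genes that are not independent.

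Genes were also picked by whether their step in the libraries labelled DKO passed the threshold. It passed in 4607 genes (21.5%), against 5091 (23.7%) in P14 and 7380 (34.4%) in WT cells. Fewer called steps than in WT cells were thus not particular to P14 cells. The step in the libraries labelled DKO uses no P14 or WT value, but its test shares 1 estimate of the spread with the P14 and WT libraries. Of the 2425 genes (11.3%) that rose there between day 2 and day 4, the median step was 0.63 in P14 and 0.91 in WT cells, and the P14 step was the lower in 1637 (67.5%). Of the 2182 genes (10.2%) that fell there, the median step was -0.47 in P14 and -0.64 in WT cells, and the P14 step was the less negative in 1440 (66.0%). The median interaction was -0.23 in the genes that rose there and 0.19 in those that fell, against 7.5e-05 over all genes tested.

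**Figure D1:**
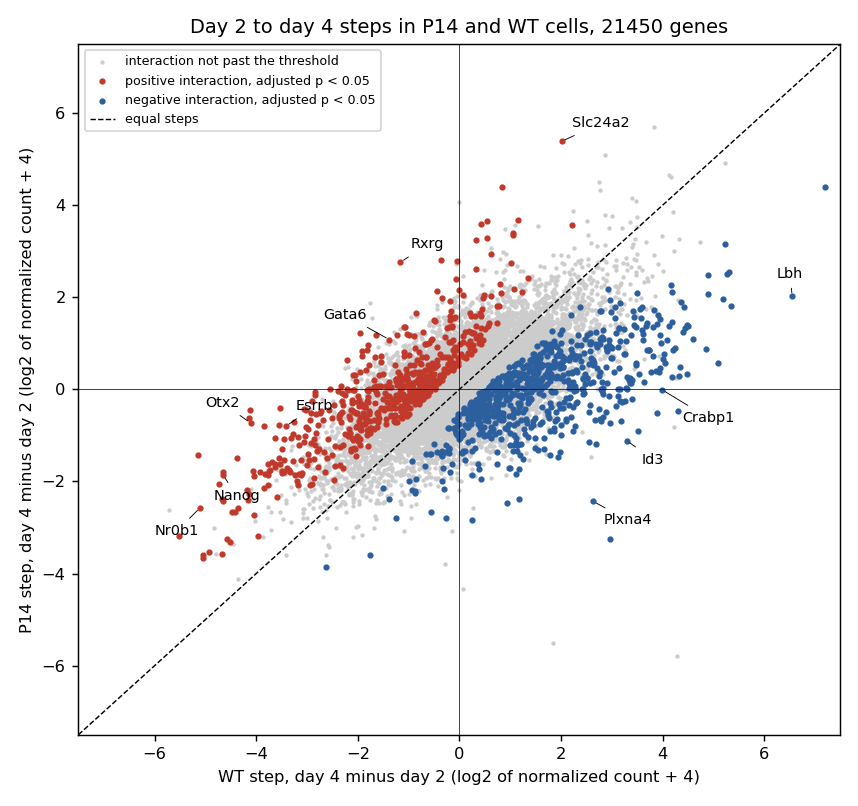
The P14 step (vertical axis) plotted against the WT step (horizontal axis), both as day 4 minus day 2 differences of log2(normalized count + 4), with 1 point for each of 21450 genes and the dashed line at equal steps. Red points are the 575 positive and blue points the 728 negative interactions past the threshold; most lie on the side of the dashed line nearer to no change in P14 cells.

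The counts in this list and those below are to be read beside the shares over all genes, 2.68% positive and 3.39% negative. Of 20 naive pluripotency genes measured, 13 had a positive interaction past the threshold and 0 a negative one, with a median interaction of 0.84. In the sets that left out 1 library the count was 10 to 14. The fall between day 2 and day 4 passed the threshold in 16 of the 20 in P14 cells, against 11.5% of all genes. In WT cells it passed in 17, against 16.1% of all genes. A rise passed in 3 genes in P14 and 2 in WT cells. Median steps were -0.96 in P14 and -2.05 in WT cells. Nanog, a homeodomain factor at the core of the naive network, had 452 and 479 normalized counts in P14 cells at day 4 and 1671 and 1727 at day 2, against 31.3 and 32.5 in WT cells at day 4 and 838 and 957 at day 2. The 4 groups did not overlap, and WT cells at day 4 were the lowest. Nanog was 3.63-fold lower at day 4 than at day 2 in P14 cells and 25.1-fold lower in WT cells (interaction 2.79 ± 0.14, SE; adjusted p = 2.5e-08). Esrrb, an orphan nuclear receptor that sustains self-renewal, had 2732 and 2959 normalized counts in P14 cells at day 4 and 4571 and 5359 at day 2, against 179 and 183 in WT cells at day 4 and 2012 and 1930 at day 2. The P14 libraries at day 4 thus stood above the WT libraries of both days. Its interaction was 2.62 ± 0.14 (adjusted p = 5.6e-08), with falls of 1.74-fold in P14 and 10.7-fold in WT cells.

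Nr0b1 (Dax1), an orphan receptor that binds Pou5f1 protein, had 318 and 301 normalized counts in P14 cells at day 4 and 1830 and 1890 at day 2, against 21.6 and 24.4 in WT cells at day 4 and 887 and 961 at day 2. It fell in both kinds of cells, and the interaction was 2.53 ± 0.14 (adjusted p = 7.7e-08). Zfp42 (Rex1), a common naive marker, had an interaction of 1.31, Fgf4, the FGF ligand made by naive cells, 1.39, and the Klf family gene Klf5 0.93. Tfcp2l1, a transcription factor downstream of LIF, had an interaction of 0.89. Klf4 was past the threshold at 0.78 (adjusted p = 0.028), but not when replicate 1 of any of the 4 groups was left out. The 2 naive genes with negative estimates, named after their values were seen, did not pass: Tcl1, a cofactor of Akt, at -0.85 and the homeobox gene Gbx2 at -0.06, which was 0.01 with libraries centred on their median gene. Gbx2 rose in both kinds of cells, by 0.56 in P14 and 0.61 in WT cells. In the list of LIF and STAT3 response, 4 of 16 were positive and 1 negative, and the positive count was 2 without P14 day 4 replicate 1, WT day 4 replicate 1 or WT day 2 replicate 1.

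The promoter of Nanog is shown because the gene had the smallest adjusted p of all named genes. The 250 bases before its first listed start (RefSeq, GRCm38.p6, chr6:122707239-122707488, plus strand) hold the composite octamer and Sox motif, which was searched on both strands with any base allowed at its eighth position. It matched at TTTGCATTACAATG, given in capitals, 75 to 62 bases before the start (-75 to -62).
Nanog: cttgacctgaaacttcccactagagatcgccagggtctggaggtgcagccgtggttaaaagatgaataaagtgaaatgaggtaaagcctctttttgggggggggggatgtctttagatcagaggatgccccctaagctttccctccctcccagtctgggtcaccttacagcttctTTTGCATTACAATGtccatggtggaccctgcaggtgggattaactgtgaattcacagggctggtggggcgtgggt
The motif stood in 2 of 32851 promoters of the table (0.00609%). Of the 15 naive promoters matched, 1 held it, that of Nanog. A link between the motif and the interaction was not tested. A Prdm14 motif, searched as GGTCTCTAA on both strands, stood in 0.24% of all promoters and in 0 of the 15 naive promoters matched, which says only that these letters are not in these windows.

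**Figure D2:**
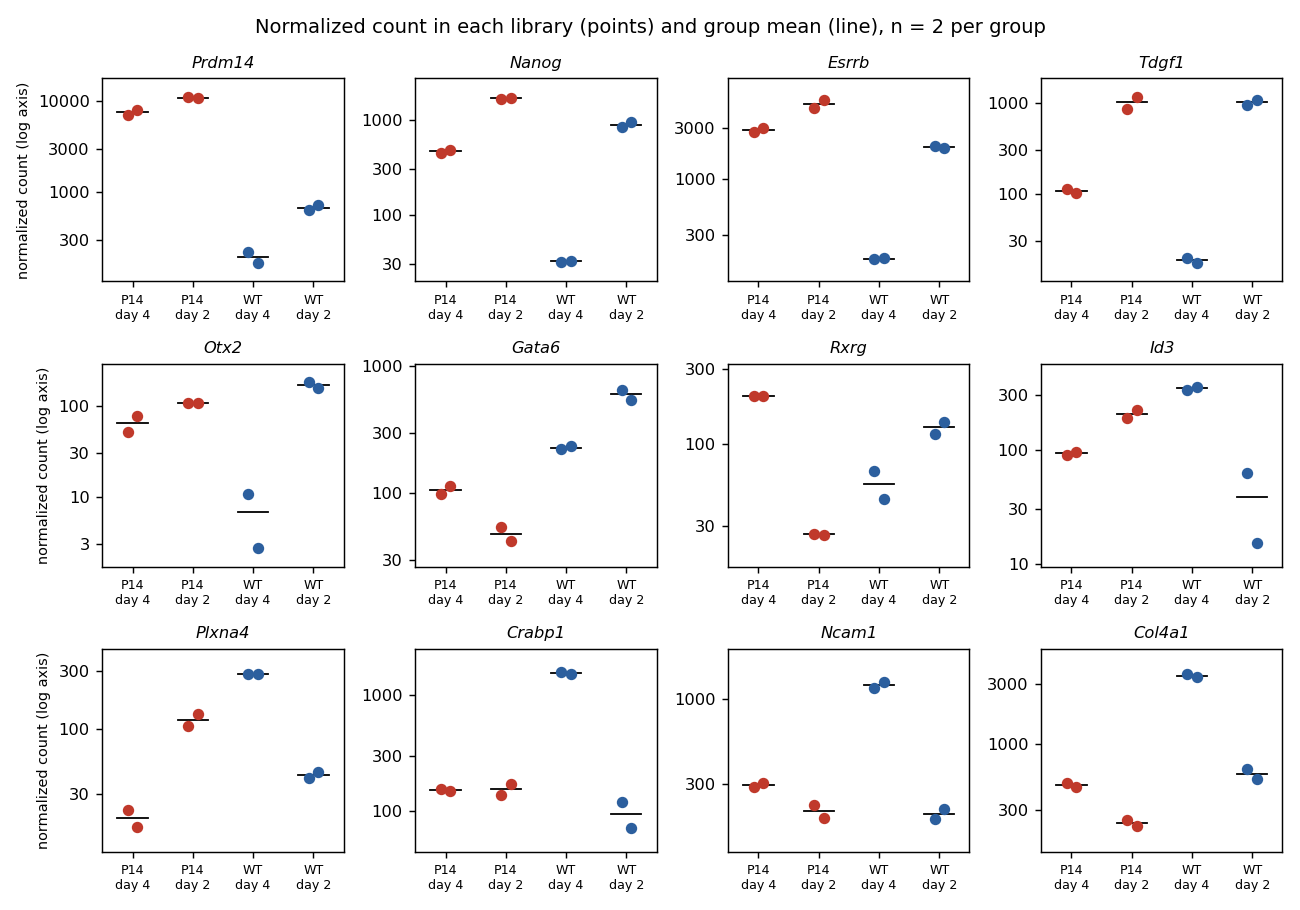
Normalized count (log axis) of 12 genes in each library, with P14 cells in red and WT cells in blue, 2 libraries per group as points and the group mean as a line. Nanog, Esrrb and Tdgf1 drop further in WT cells, Gata6 and Rxrg go up in P14 cells and down in WT cells, and Id3 and Plxna4 do the reverse.

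Genes of general pluripotency split. Of 18 measured, 7 had a positive interaction and 4 a negative one, with a median of 0.52. The positive calls numbered 7 or 8 in the sets without 1 library, and the negative calls 1 without P14 day 4 replicate 1 or WT day 2 replicate 2 and 2 without WT day 4 replicate 2. Tdgf1 (Cripto), the co-receptor of Nodal, had 112 and 102 normalized counts in P14 cells at day 4 and 858 and 1164 at day 2, against 19.4 and 17.2 in WT cells at day 4 and 959.8 and 1086 at day 2. The groups overlapped at day 2 and not at day 4. Tdgf1 was 9.08-fold lower at day 4 in P14 cells and 46.0-fold lower in WT cells (interaction 2.34 ± 0.22, adjusted p = 1.7e-05). Utf1, a chromatin factor of pluripotent cells, had an interaction of 1.82, L1td1, an RNA-binding protein gene, 1.36, and the paired genes Dppa2 and Dppa4, which keep developmental promoters open, 1.42 and 1.21. The negative calls were Sox2, Sall4, Lin28a and Lin28b; Sox2, Lin28a and Lin28b are named after their values were seen. Lin28b, which blocks let-7 maturation, fell by 0.58 in P14 cells and rose by 0.77 in WT cells (interaction -1.35, adjusted p = 0.00076). Sall4 fell by 0.83 in P14 cells, while its WT step was -0.21 (interaction -0.62, adjusted p = 0.014). Sall4 lost the call without P14 day 4 replicate 1, WT day 4 replicate 2 or WT day 2 replicate 2. Sox2 lost it without P14 day 4 replicate 1, P14 day 2 replicate 2, WT day 4 replicate 2 or WT day 2 replicate 2, and Lin28a without P14 day 4 replicate 1 or WT day 2 replicate 2.

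In the Nodal pathway, 7 of 15 genes had a positive and 1 a negative interaction, with a median of 0.64 and median steps of -0.87 in P14 and -2.18 in WT cells. The positive calls numbered 4 or 5 in each set without 1 library, with 4 without P14 day 4 replicate 2, and the negative call was kept in each. Nodal, the ligand, had 356 and 383 normalized counts in P14 cells at day 4 and 888 and 1222 at day 2, against 106 and 84.9 in WT cells at day 4 and 1203 and 1108 at day 2. P14 cells stood above WT cells at day 4 and overlapped them at day 2 (interaction 2.07 ± 0.22, adjusted p = 4.4e-05). Smad7, an inhibitor induced by the pathway, fell by 0.87 in P14 and by 2.18 in WT cells (interaction 1.31). Smad3, which carries the signal to the nucleus, was the negative call: it rose by 0.40 in P14 cells (adjusted p = 0.049) and by 1.77 in WT cells (interaction -1.37, adjusted p = 0.00061).

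The formative and early postimplantation genes also went both ways. Of 20 measured, 7 interactions were positive and 3 negative, with a median of 0.30 (0.45 without P14 day 4 replicate 1); the positive calls numbered 4 to 8 in the sets without 1 library, with 4 without WT day 2 replicate 1. Otx2, the homeodomain factor that drives the exit from the naive state, had 51.2 and 76.5 normalized counts in P14 cells at day 4 and 106 and 107 at day 2, against 10.8 and 2.71 in WT cells at day 4 and 182 and 155 at day 2. WT cells thus held the highest and the lowest group of libraries. Otx2 fell by 4.11 in WT cells (adjusted p = 3.2e-07), with a P14 step of -0.73 that did not pass (adjusted p = 0.16), and its interaction was 3.38 ± 0.51 (adjusted p = 0.00079). Zic5 had an interaction of 1.08. Sox11, a SoxC factor of early neural cells, had -1.46, with a rise of 1.80 in WT cells and a P14 step of 0.34 that did not pass (adjusted p = 0.076). Fgf5 and Pou3f1, both usual markers of the formative state, had interactions of 0.59 and 0.30 that did not pass.

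Among genes of DNA methylation, 3 of 12 had a positive and 1 a negative interaction, with a median of 0.31, and the 3 positive calls stood in every set without 1 library. Dnmt3a, a de novo methyltransferase, had 2859 and 3193 normalized counts in P14 cells at day 4 and 4912 and 4844 at day 2, against 2238 and 2653 in WT cells at day 4 and 9760 and 9551 at day 2. P14 and WT cells lay furthest apart at day 2. It fell 1.61-fold in P14 and 3.96-fold in WT cells (interaction 1.29 ± 0.15, adjusted p = 8.5e-05). Tet1 and Tet2, which oxidise methylated cytosine, fell in both kinds of cells with interactions of 0.77 and 0.92. Tet3, of the same family, rose in both, by 0.52 in P14 and 1.61 in WT cells, with an interaction of -1.09. Dnmt3b had an interaction of 0.28 that did not pass, and its level was 798 and 887 in P14 cells at day 4 and 881 and 774 at day 2, against 2200 and 2023 in WT cells at day 4 and 2591 and 2439 at day 2.

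Some germline genes known to be silenced by DNA methylation had a less negative step in P14 than in WT cells. Of 16 measured, 6 had a positive interaction and 0 a negative one, with a median of 0.75 and median steps of -0.42 in P14 and -1.09 in WT cells. The count was 3 to 5 in the sets without 1 library, with 3 without WT day 4 replicate 1 or either WT day 2 replicate. Dazl, an RNA-binding protein gene of germ cells, had 119.7 and 105 normalized counts in P14 cells at day 4 and 254 and 218 at day 2, against 15.1 and 6.32 in WT cells at day 4 and 117 and 158 at day 2. WT day 4 stood below the other 3 groups (interaction 2.27 ± 0.43, adjusted p = 0.0045). Tuba3a, a testis alpha-tubulin gene, had 1233 and 1662 in P14 cells at day 4 and 1811 and 2082 at day 2, against 374 and 374 in WT cells at day 4 and 2377 and 2092 at day 2. Its interaction was 2.12 (adjusted p = 2.9e-05), and its reads may be shared with the near-identical Tuba3b. Stag3, a meiotic cohesin subunit, had a WT step of -1.97 and a P14 step of -0.28 that did not pass (interaction 1.70, adjusted p = 0.0021). Rpl10l, a retrogene of testis, fell in both (interaction 0.83, adjusted p = 0.026) and lost the call in 5 of the 8 sets without 1 library: P14 day 4 replicate 2, P14 day 2 replicate 1, WT day 4 replicate 1 and either WT day 2 replicate.

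The promoters of 3 of these genes are shown because their calls stood in every set without 1 library. Each line gives the 250 bases before the listed start (RefSeq, GRCm38.p6), written along the gene's strand, with capitals for the E-box CACGTG or for GGCGGGA, an E2F-like motif, searched on both strands. They lie at chr5:138280259-138280508 on the plus strand (Stag3), chr6:125286082-125286331 on the minus strand (Tuba3a) and chr17:50293621-50293870 on the minus strand (Dazl).
Stag3: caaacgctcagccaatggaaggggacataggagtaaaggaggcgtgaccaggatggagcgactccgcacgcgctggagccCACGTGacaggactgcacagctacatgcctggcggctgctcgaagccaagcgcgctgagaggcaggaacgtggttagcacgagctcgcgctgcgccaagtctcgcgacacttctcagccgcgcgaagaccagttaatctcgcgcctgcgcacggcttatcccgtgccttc
Tuba3a: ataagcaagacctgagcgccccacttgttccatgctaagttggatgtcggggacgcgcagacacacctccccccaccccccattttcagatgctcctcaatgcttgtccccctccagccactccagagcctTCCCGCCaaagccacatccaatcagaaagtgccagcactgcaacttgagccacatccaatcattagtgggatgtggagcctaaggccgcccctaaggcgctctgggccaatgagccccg
Dazl: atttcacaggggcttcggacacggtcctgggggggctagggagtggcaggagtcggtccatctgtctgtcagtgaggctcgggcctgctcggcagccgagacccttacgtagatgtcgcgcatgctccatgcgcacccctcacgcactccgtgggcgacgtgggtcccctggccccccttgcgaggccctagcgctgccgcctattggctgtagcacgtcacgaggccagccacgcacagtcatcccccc
Stag3 held the E-box, Tuba3a the E2F-like motif on the opposite strand, and Dazl neither. Over the 16 promoters of the list, 13 held at least 1 of these motifs, against 14.9% of all 32851 promoters. They stood in 4 of the 6 genes with a positive call and in 9 of the 10 without a call.

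**Figure D3:**
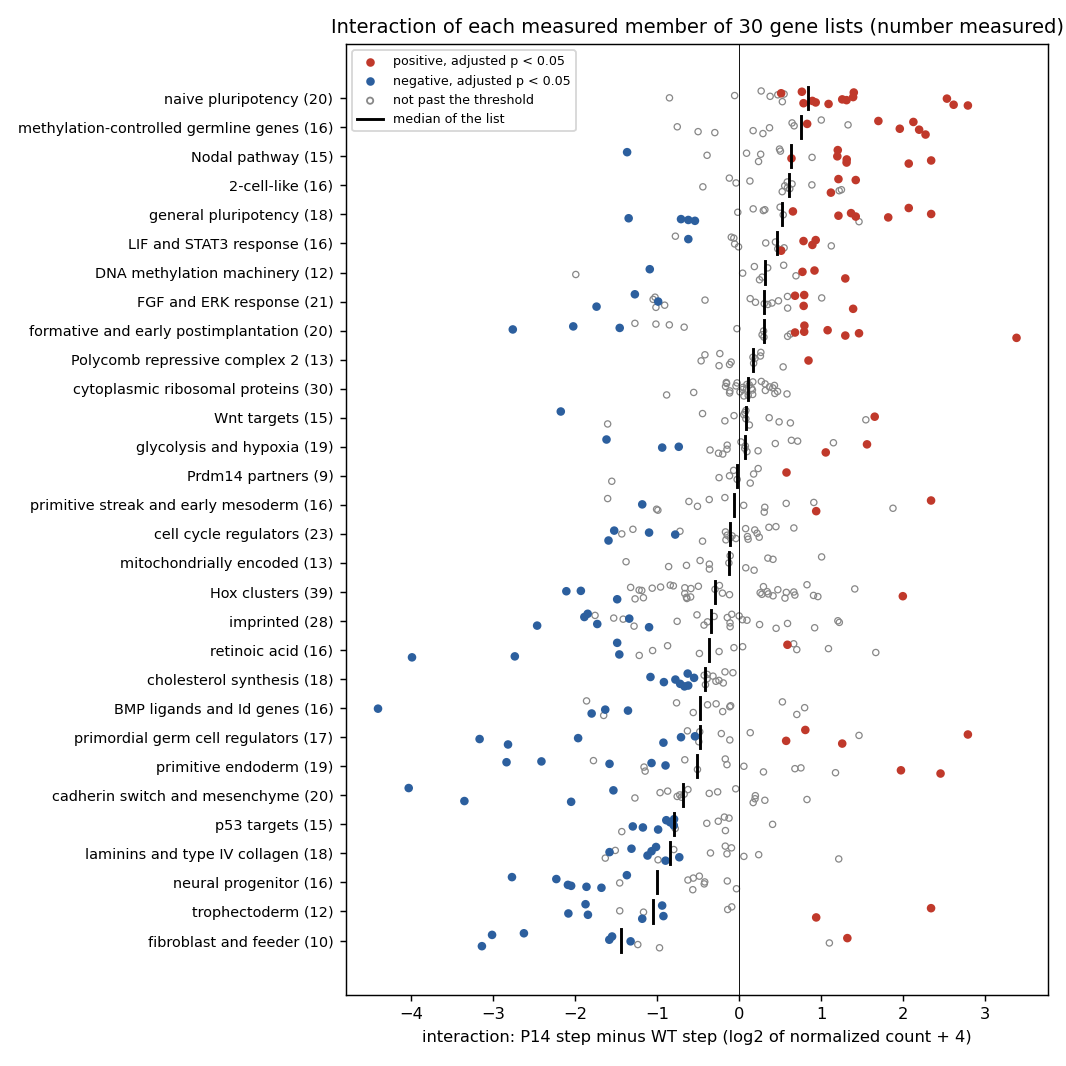
The interaction of each measured member of 30 gene lists, as P14 step minus WT step in log2(normalized count + 4), ordered by the list median (black bar). Filled red and blue points passed the threshold; naive pluripotency, germline and Nodal genes lie mostly right of 0, and neural, trophectoderm and fibroblast genes mostly left of 0.

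Of 16 neural progenitor genes measured, 7 had a negative interaction and 0 a positive one, with a median of -0.998 and median steps of 0.69 in P14 and 2.04 in WT cells. The count was 4 to 8 in the sets without 1 library, with 4 without WT day 2 replicate 2, and it was 4 with an offset of 1. The rise between day 2 and day 4 passed the threshold in 9 of the 16 in P14 cells, against 12.2% of all genes. In WT cells it passed in 14, against 18.3% of all genes. A fall passed in 1 gene in each kind of cells. Ncam1, a neural cell adhesion molecule, had 286 and 304 normalized counts in P14 cells at day 4 and 221 and 185 at day 2, against 1175 and 1282 in WT cells at day 4 and 183 and 209 at day 2. P14 and WT cells overlapped at day 2 and stood apart at day 4 (interaction -2.09 ± 0.18, adjusted p = 7.7e-06). Nes, the intermediate filament nestin, had 635 and 803 in P14 cells at day 4 and 320.5 and 328 at day 2, against 1078 and 1212 in WT cells at day 4 and 148 and 172 at day 2. The order of P14 and WT cells was thus reversed between the 2 days (interaction -1.68, adjusted p = 0.001). N-cadherin (Cdh2) and the Hedgehog effector Gli3 had interactions of -2.05 and -1.37, and Gli3 had a P14 step of 0.07. The neural regulators Sox1 and Pax6, from the marker list, did not pass, with interactions of -0.57 and -0.03 (Pax6 had 0.03 with libraries centred on their median gene); Pax6 rose by 1.57 in P14 and 1.61 in WT cells.

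Among retinoic acid genes the large differences were in binding proteins. Of 16 measured, 4 were negative and 1 positive, with a median of -0.37. The positive call was lost without P14 day 4 replicate 2, P14 day 2 replicate 1, either WT day 4 replicate or WT day 2 replicate 1, and there were 2 without P14 day 2 replicate 2. The median was -0.75 without P14 day 4 replicate 1, -0.66 without WT day 2 replicate 1 and -0.15 without P14 day 4 replicate 2 or WT day 2 replicate 2. Crabp1, which binds retinoic acid in the cytoplasm, had 155 and 149 normalized counts in P14 cells at day 4 and 136 and 171 at day 2, against 1553 and 1494 in WT cells at day 4 and 119 and 71.6 at day 2. WT cells at day 4 stood far above the other 3 groups. The WT step was 3.98 and the P14 step -0.01 (interaction -3.99 ± 0.32, adjusted p = 3.2e-06). Crabp2 rose in both kinds of cells, by 1.38 in P14 and 4.12 in WT cells (interaction -2.74). Across the 39 Hox genes measured, 3 interactions were negative and 1 positive, against 3.39% and 2.68% of all genes. The positive one was Hoxa10, which fell by 1.63 in P14 and by 3.62 in WT cells (interaction 2.00, adjusted p = 0.00029). Of the other calls, Hoxc4 lost its call in every set without 1 library other than the one without P14 day 2 replicate 1, and Hoxc5 lost its call without replicate 1 of any of the 4 groups.

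In the list of the cadherin switch, 4 of 20 were negative and 0 positive, with 4 or 5 in the sets without 1 library; besides Cdh2 these were Cdh11, Twist1 and the matrix protein gene Tnc. Twist1, a mesenchymal bHLH factor, had 68.6 and 76.5 normalized counts in P14 cells at day 4 and 79.5 and 59.8 at day 2, against 215 and 258 in WT cells at day 4 and 73.6 and 76.3 at day 2 (interaction -1.53, adjusted p = 0.0046). WT cells at day 4 stood above the other 3 groups, which overlapped. Cdh11 and Tnc had 0 counts in both libraries of P14 and of WT cells at day 2 and at most 5.03 in P14 cells at day 4, against 78.8 and 62.3 (Cdh11) and 66.9 and 86.7 (Tnc) in WT cells at day 4. Both lost their calls with voom, a fit of limma on the recovered reads, and Cdh11 also with an offset of 1. Of 18 laminin and type IV collagen genes, 7 were negative and 0 positive, with a median of -0.85, or -0.94 with groups at 0 set to 3 reads in each library. There were 3 without WT day 4 replicate 2 and 4 without P14 day 2 replicate 1, WT day 4 replicate 1 or WT day 2 replicate 2. Col4a1, a basement membrane collagen chain, had 488 and 458 in P14 cells at day 4 and 249 and 223 at day 2, against 3542 and 3355 in WT cells at day 4 and 628 and 527 at day 2. P14 stood below WT cells on both days, further at day 4 (interaction -1.58, adjusted p = 0.00011). Its partner Col4a2, whose annotation overlaps that of Col4a1 on the other strand, had -1.07, and Nid1 -1.31.

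The fibroblast and feeder list had the lowest median interaction of the 30 lists, -1.44, with 6 of 10 measured genes negative and 1 positive. The negative calls numbered 3 to 6 in the sets without 1 library, with 3 without P14 day 4 replicate 1 or WT day 4 replicate 2. Tagln, a smooth muscle and stress fibre protein gene, had 146 and 98.6 normalized counts in P14 cells at day 4 and 35.3 and 28.7 at day 2, against 448 and 427 in WT cells at day 4 and 17.3 and 16.02 at day 2 (interaction -2.63, adjusted p = 0.0014). The gelatinase gene Mmp2 and the fibrillin gene Fbn1 had interactions of -1.55 and -1.58. Loxl1, a collagen cross-linking enzyme, was the positive call at 1.32, lost without P14 day 4 replicate 2, WT day 4 replicate 2 or WT day 2 replicate 2. The fibroblast markers summed above, Col1a1, Col1a2 and Thy1, are members of this list, so they are not a separate observation. Their sum was at its highest in WT cells at day 4, and the part of fibroblasts in these values was not tested.

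Extraembryonic genes went both ways. Of 19 primitive endoderm genes, 2 interactions were positive and 5 negative, with a median of -0.51, or -0.49 with groups at 0 set to 3 reads in each library. That median was -0.11 without P14 day 4 replicate 1 and -0.79 without P14 day 4 replicate 2. The positive ones belong to a transcription factor and a receptor of early primitive endoderm. Gata6 had 98.7 and 114 normalized counts in P14 cells at day 4 and 54.3 and 42.5 at day 2, against 222 and 235 in WT cells at day 4 and 658 and 547 at day 2. It rose by 1.08 in P14 cells and fell by 1.38 in WT cells, while P14 levels stayed below WT levels on both days (interaction 2.46 ± 0.26, adjusted p = 4.3e-05). Pdgfra rose by 1.49 in P14 cells, where it had at most 21.0, with a WT step of -0.48 (interaction 1.97, adjusted p = 0.0054); this call was lost with voom. Negative calls included the endocytic adaptor Dab2 at -2.84 and both type IV collagen genes above. Sox17 and Gata4 did not pass, with interactions of 0.30 and 1.17. Of 12 trophectoderm genes, 6 were negative and 2 positive, with a median of -1.05, but 3 to 5 and 0 or 1 in the sets without 1 library; the negative count was 3 without P14 day 4 replicate 2, either WT day 4 replicate or WT day 2 replicate 2. The simple epithelial keratin genes Krt8 and Krt18 had interactions of -1.85 and -2.08, kept in each of those sets, though pseudogene copies make their read assignment uncertain. Cdx2, the trophectoderm and posterior regulator, had -1.18 (adjusted p = 0.043) and lost the call in all 8 such sets, as Hand1 did (2.34, adjusted p = 0.045). The 3 trophectoderm markers analysed summed to 159.96 to 171 normalized counts in P14 cells at day 4 and 148 to 197 at day 2, against 330.2 to 343 in WT cells at day 4 and 299.7 to 310.05 at day 2.

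Signalling genes known to respond to FGF and BMP showed single large differences. Positive calls of the FGF and ERK list included Fgf4 at 1.39 and Etv5 at 0.79, the latter named after its values were seen. Fgfr1, the main FGF receptor of pluripotent cells, had 721 and 698 normalized counts in P14 cells at day 4 and 1332 and 1223 at day 2, against 2778 and 2823 in WT cells at day 4 and 1606 and 1407 at day 2. It fell by 0.84 in P14 cells and rose by 0.90 in WT cells (interaction -1.74 ± 0.16, adjusted p = 1.4e-05). Over 21 FGF and ERK genes 4 interactions were positive and 3 negative (2 positive without P14 day 4 replicate 2, WT day 4 replicate 2 or WT day 2 replicate 1), and the other negative calls were the feedback inhibitors Spred1 at -0.99 and Il17rd at -1.27. In the list of BMP ligands and Id genes, 4 of 16 were negative and 0 positive, with 2 when any 1 library of P14 day 4, WT day 4 or WT day 2 was left out. Id3, an inhibitor of bHLH factors induced by BMP, had 89.6 and 95.6 in P14 cells at day 4 and 188 and 223 at day 2, against 332 and 354 in WT cells at day 4 and 61.7 and 15.1 at day 2. The order of P14 and WT cells was opposite on the 2 days (interaction -4.41 ± 0.52, adjusted p = 0.0001). Bmp7, a ligand, rose by 1.34 in P14 and by 3.14 in WT cells (interaction -1.80). Id1 and Id2 had -1.36 and -1.63, and each lost its call in 7 of the 8 sets without 1 library.

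Regulators of primordial germ cells went both ways, with 4 positive and 6 negative interactions among 17, and 3 negative without P14 day 4 replicate 1 or WT day 2 replicate 2. Prdm1 (Blimp1), which starts germ cell specification, had 153 and 215 normalized counts in P14 cells at day 4 and 46.7 and 34.5 at day 2, against 1035 and 1180 in WT cells at day 4 and 28.1 and 39.6 at day 2. It rose in both, further in WT cells (interaction -2.82 ± 0.38, adjusted p = 0.00029). Ifitm3, an early germ cell surface protein gene, had an interaction of -3.17, with a WT rise of 2.74 and a P14 step of -0.42; reads may be shared with other Ifitm genes. Prdm14, Nanog, Kit and Alpl were the positive calls, the last 2 at 0.57 and 0.81 and named after their values were seen.

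Imprinted and p53 target genes had negative calls alone by the threshold. Of 28 imprinted genes, 6 were negative and 0 positive, with a median of -0.35 and 3 to 8 negative in the sets without 1 library (3 without P14 day 4 replicate 1, WT day 4 replicate 2 or WT day 2 replicate 2). Peg3, a paternally expressed zinc finger gene, had 1161 and 1289 normalized counts in P14 cells at day 4 and 1084 and 928 at day 2, against 6602 and 7034 in WT cells at day 4 and 1042 and 977 at day 2. P14 and WT cells overlapped at day 2 (interaction -2.46 ± 0.14, adjusted p = 7.7e-08). Mest and Nnat, both paternally expressed, rose in both kinds of cells with interactions of -1.73 and -1.89. Zdbf2 had -1.85, with P14 day 2 libraries at 2564 and 847, and lost the call without any 1 library other than those 2. Of 15 p53 targets 7 were negative and 0 positive, with a median of -0.79 and 5 to 8 in the sets without 1 library. Ccng1 had -0.99, Phlda3 -1.17, Trp53inp1 -0.80 and Zmat3 -0.84. Cdkn1a, named after its values were seen, had an interaction of -1.43 that did not pass, with 2371 and 3994 in P14 cells at day 4, 1552 and 3395 in P14 cells at day 2, 3762 and 4680 in WT cells at day 4 and 1422 and 942 in WT cells at day 2.

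All 18 genes of cholesterol synthesis had negative estimates, with a median of -0.42, and 8 passed the threshold, but 2 did with libraries centred on their median gene. The count was 2 to 9 in the sets without 1 library, with 2 in 5 of them (without either P14 day 4 replicate, P14 day 2 replicate 1, WT day 4 replicate 2 or WT day 2 replicate 2), 4 without WT day 4 replicate 1 and 3 without WT day 2 replicate 1. Lss, the oxidosqualene cyclase, fell by 0.38 in P14 and rose by 0.40 in WT cells (interaction -0.78, adjusted p = 0.0027). Glycolysis genes gave 2 positive and 3 negative calls of 19: Pdk1, which inhibits pyruvate dehydrogenase, rose by 1.36 in P14 cells with a WT step of -0.20 (interaction 1.56, adjusted p = 1.7e-05), and Ldha, lactate dehydrogenase, fell by 0.98 in P14 cells with a WT step of -0.04 (interaction -0.94, adjusted p = 0.0015). Of 23 cell cycle regulators 4 were negative; Ccnd2, a D-type cyclin, had 806 and 931 normalized counts in P14 cells at day 4 and 844 and 748 at day 2, against 1048 and 1144 in WT cells at day 4 and 331 and 329 at day 2 (interaction -1.59 ± 0.15, adjusted p = 1.9e-05). The other 3, Cdk6, Cdkn1c and Cdkn2c, lost their calls in 4 to 7 of the 8 sets without 1 library, leaving 1 or 2 calls without P14 day 4 replicate 1 or any 1 WT library.

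Several lists held few calls or none. With 6.07% of all genes called, 1 call in a short list does not set it apart. No call was made among 30 cytoplasmic ribosomal protein genes (median 0.10) or 13 mitochondrially encoded genes (median -0.13); the medians ran over 0.04 to 0.20 and over -0.53 to 0.27 in the sets without 1 library. By limma's test 4 and 2 of them had an unadjusted p under 0.05, voom called 0 in either list, and without P14 day 2 replicate 2 there were 2 and 4 negative calls. Partners of Prdm14 gave 1 positive call of 9, the corepressor Tle4 at 0.57, and a median of -0.02, which was 0.04 with libraries centred on their median gene and -0.09 to 0.15 in the sets without 1 library. Polycomb repressive complex 2 gave 1 of 13, Jarid2 at 0.84. Tle4 and Jarid2 are named after their values were seen. Wnt targets gave 1 call in each direction among 15. The primitive streak calls given next, Eomes, Hand1 and Cdx2, are also counted among the trophectoderm calls above. Primitive streak genes gave 2 positive and 1 negative of 16, each lost in 5 to 8 of the 8 sets without 1 library. The 2-cell-like list gave 3 positive calls of 16; Dppa2 and Dppa4 are 2 of them, and the third, Zscan4c, may share reads with its near-identical family and lost its call in 5 of the 8 sets.

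Among genes with a mean normalized count of at least 50 in at least 1 of the 4 groups, leaving out unnamed gene models and pseudogenes, the 8 largest positive interactions past the threshold belonged to Rxrg, Calcoco2, Myrip, Otx2, Slc24a2, Cbln4, Edn2 and Pik3ap1, at 3.92 down to 2.93. Several of them reach that mean only in their highest group. Calcoco2, a receptor for selective autophagy, had 92.3 and 85.5 normalized counts in P14 cells at day 4 and 132 and 115 at day 2, against 17.3 and 27.1 in WT cells at day 4 and 445 and 437 at day 2. It fell by 4.11 in WT cells, with a P14 step of -0.46 that did not pass (interaction 3.66 ± 0.27, adjusted p = 1.3e-06). Slc24a2, an exchanger of sodium for calcium and potassium, had 194 and 227 in P14 cells at day 4 and 2.52 and 0 at day 2, against 14.03 and 28.9 in WT cells at day 4 and 2.16 and 1.88 at day 2. It rose in both kinds of cells, further in P14 cells. Myrip, which links Rab27 to myosin, rose by 4.38 and the synaptic organizer gene Cbln4 by 3.67 in P14 cells, with WT steps of 0.83 and 0.54 that did not pass. With an offset of 1, Myrip and Edn2 lost their calls, and with voom Slc24a2 and Edn2 did.

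By the same rule, the 8 largest negative interactions belonged to Plxna4, Tmem132c, Prss23os, Lbh, Pcdh18, Id3, Prr5l and Fezf2, at -5.06 to -4.14. The lowest called interaction of any gene was -6.21, outside that rule. Lbh, a transcriptional regulator of limb bud and heart, had 65.8 and 47.3 normalized counts in P14 cells at day 4 and 10.1 and 11.5 at day 2, against 748 and 799 in WT cells at day 4 and 0 and 13.2 at day 2. It rose in both (interaction -4.53 ± 0.73, adjusted p = 0.0013). Prr5l, a partner of the mTORC2 complex, had 25.6 and 21.1 in P14 cells at day 4 and 40.4 and 29.9 at day 2, against 448 and 473 in WT cells at day 4 and 20.6 and 35.8 at day 2, with WT day 4 far above the other 3 groups. Pcdh18, a protocadherin gene, had 0 counts in both P14 libraries at day 4 and 2.52 and 4.60 at day 2, against 80.9 and 70.4 in WT cells at day 4 and 2.16 and 3.77 at day 2. Its interaction was -4.43, or -3.64 with the libraries at 0 set to 3 reads each. Fezf2, a forebrain zinc finger gene, had at most 8.05 in P14 cells and lost its call with an offset of 1 and with voom. Prss23os lies antisense to Prss23, and without a stated strand setting their reads cannot be told apart.

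In 89 genes both steps passed the threshold with opposite signs. In 22 the gene rose in P14 and fell in WT cells, and in 67 it fell in P14 and rose in WT cells. Rxrg, a retinoid X receptor on chromosome 1 (167598384 to 167639623, plus strand, GRCm38), had 203 and 202 normalized counts in P14 cells at day 4 and 26.5 and 26.4 at day 2, against 66.9 and 44.2 in WT cells at day 4 and 116 and 139 at day 2. Its 4 groups did not overlap, and P14 cells were the higher at day 4 and the lower at day 2. It rose by 2.76 in P14 and fell by 1.16 in WT cells (interaction 3.92 ± 0.50, adjusted p = 0.00017). Besides Gata6, the 5 largest of this kind held Rapgef3, a cAMP-activated exchange factor (1.81), Cgnl1, a tight junction protein gene (1.78), and the long non-coding RNA gene 4933427D06Rik (2.17), which lost its call without WT day 4 replicate 2.

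Plxna4, a semaphorin co-receptor on chromosome 6 (32144268 to 32588192, minus strand), had 21.9 and 16.1 normalized counts in P14 cells at day 4 and 106 and 133 at day 2, against 285 and 283 in WT cells at day 4 and 40.0 and 45.2 at day 2. The order of P14 and WT cells was again opposite on the 2 days. It fell by 2.43 in P14 cells (adjusted p = 9.4e-05) and rose by 2.63 in WT cells (adjusted p = 2.1e-05), for an interaction of -5.06 ± 0.48 (adjusted p = 1.7e-05). Besides Plxna4 and Id3, the 5 largest of this orientation were Tnfaip2 at -3.88, Soga3 at -3.39 and Ablim1, an actin-binding protein gene, at -3.00. 3 antisense genes overlap Plxna4 in the annotation, and their reads cannot be told apart without a stated strand setting.

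**Figure D4:**
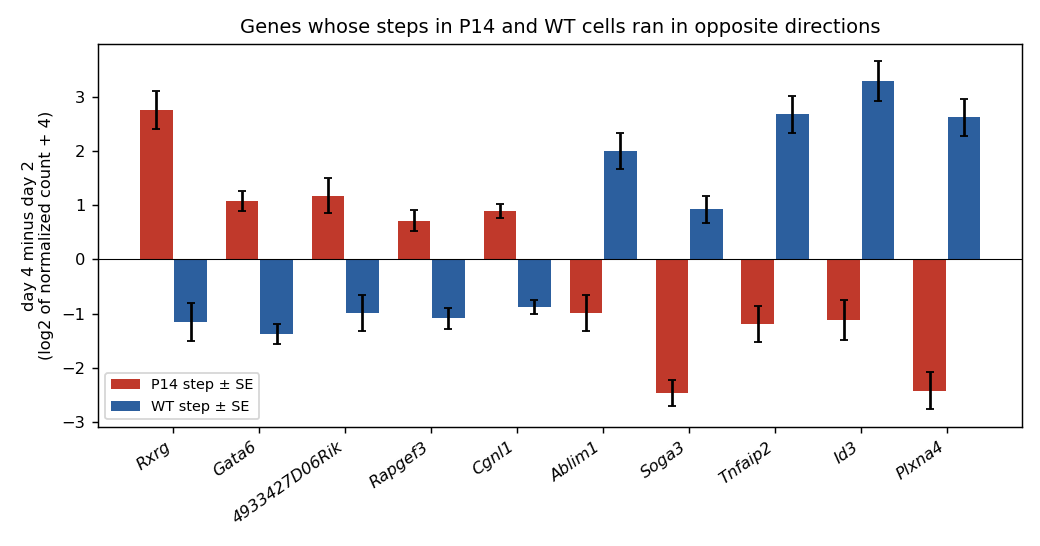
P14 step (red) and WT step (blue) with standard errors, as day 4 minus day 2 differences of log2(normalized count + 4), for the 5 genes of each orientation with the largest interactions among those whose 2 steps passed the threshold with opposite signs. Rxrg shows the widest gap on the left and Plxna4 on the right.

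The P14 step was also set against that of the libraries labelled DKO. The difference of steps between P14 cells and the libraries labelled DKO was tested in the same fit; it shares the P14 libraries with the interaction, so the counts are given side by side. It passed in 1138 genes (5.31%), higher in P14 cells in 481 (2.24%) and lower in 657 (3.06%). With equal totals 61.5% of 790 calls were higher in P14 cells, against 42.3% of the 1138. The total was 567 and 679 without P14 day 4 replicate 1 and replicate 2, and 559 and 632 without replicate 1 and replicate 2 of the libraries labelled DKO at day 2. For the naive list the median steps were -0.96 in P14 cells, -0.97 in the libraries labelled DKO and -2.05 in WT cells, and 3 of 20 genes were higher and 6 lower in P14 cells. Nanog had a difference of 0.32 (adjusted p = 0.19) and Esrrb 0.18 (adjusted p = 0.54), while Nr0b1 had -0.93 (adjusted p = 0.0014) and Tfcp2l1 0.99 (adjusted p = 0.00086). For p53 targets 1 was higher and 2 lower of 15, for germline genes 0 and 1 of 16, and for neural genes 0 and 4 of 16.

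The formative list had 0 higher and 9 lower of 20 against the libraries labelled DKO, with a median of -0.83. Dnmt3a had a difference of -0.76 (adjusted p = 0.0078), the reverse of its interaction with WT cells; the libraries labelled DKO averaged 6240 normalized counts at day 4 and 5964 at day 2. Fgfr1 had -1.36 (adjusted p = 0.00016) and Cdx2 -3.81 (adjusted p = 1e-05). Rapgef3 and Cgnl1 had 2.79 and 1.75, Slc24a2 3.03 (adjusted p = 0.012) and Pcdh18 -3.94 (adjusted p = 0.00069), each with the sign of its interaction. Ccnd2 had 1.34 (adjusted p = 0.00014), the reverse of its interaction, since it fell in the libraries labelled DKO, with averages of 1064 at day 4 and 2480 at day 2.

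**Figure D5:**
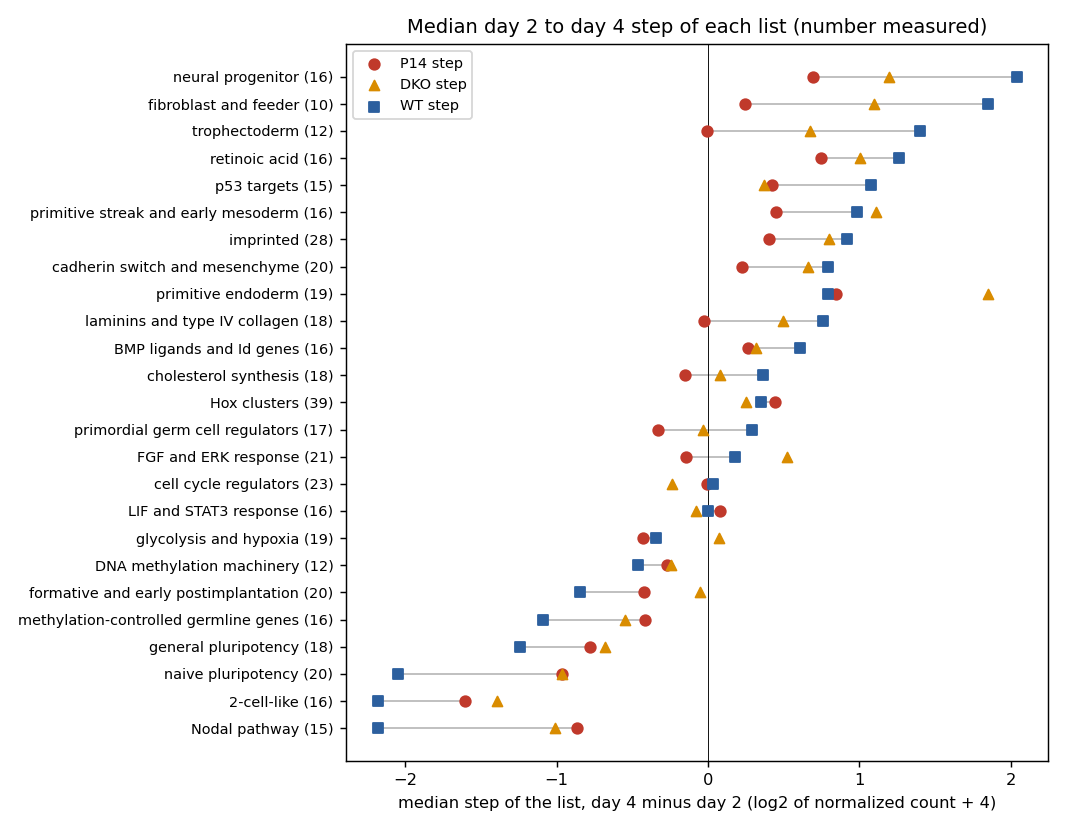
Median day 4 minus day 2 step in log2(normalized count + 4) for the 25 gene lists with at least 3 interactions past the threshold, for P14 cells (red circles), the libraries labelled DKO (orange triangles) and WT cells (blue squares), ordered by the WT step. The 3 steps of the naive list are -0.96, -0.97 and -2.05.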

How the data were processed

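Total RNA of 16 libraries was sequenced with a stranded kit, per the labels' protocols. Per the submitters' processing notes, reads were processed with Trim Galore, HISAT2 and featureCounts on mm10 (GRCm38); their versions, the annotation, the strand setting and the scaling method are not stated there or in the files. The deposited values are log2 of a scaled read count plus 4, as the values show: each library's lowest value is 2, and counts below 200 reads came out whole within 0.1 of a read.

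Of 22122 entries, 667 without a symbol stayed out of the tests; 21450 of the 21455 others had a normalized count of at least 1 in at least 2 libraries. Limma 3.58.1 in R 4.3.3, with a trended variance, was fitted to all 16 libraries as 8 group means, with Benjamini-Hochberg adjustment over all genes. The fit was tested on simulated data.

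The members and gene lists were chosen with earlier results of these data known. Genes were named by rule: Prdm14, the 8 largest interactions of each sign with a group mean of at least 50, the 5 largest opposite steps of each orientation, and up to 4 with the smallest p in each list. List members absent from the table were not analysed here, and some list members are counted but not reported here by name. Promoters are from RefSeq (GRCm38.p6); where a gene has more than 1 start, the first was used. Alternatives were other offsets, filters and scalings, voom on recovered reads, an untrended variance, a replicate block, only the libraries of the groups compared, and each library left out in turn.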

Additional observations from a re-analysis of the deposited data

Results flagged for a closer look

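The step between day 2 and day 4 differed between P14 and WT cells in 1303 genes, and between P14 cells and the libraries labelled DKO in 1138, by limma's test of the difference of steps.

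In 10 named genes the steps in P14 and WT cells passed the threshold with opposite signs, and the difference itself passed as well. The interaction was 3.92 for Rxrg, 2.46 for Gata6, 2.17 for 4933427D06Rik, 1.81 for Rapgef3 and 1.78 for Cgnl1, which rose in P14 and fell in WT cells. It was -5.06 for Plxna4, -4.41 for Id3, -3.88 for Tnfaip2, -3.39 for Soga3 and -3.00 for Ablim1, which fell in P14 and rose in WT cells.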

How the results depend on the processing

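With only the libraries of the groups compared, 805 genes passed for the interaction, 1687 for the P14 step and 364 for the difference of steps between P14 cells and the libraries labelled DKO; an untrended variance gave 691 for the last. Leaving out each library in turn gave 746 to 2054 interactions, 3317 to 5092 P14 steps and 559 to 1654 differences of steps between P14 cells and the libraries labelled DKO. None of the 113 genes named by rule changed sign under any of these alternatives. Voom on recovered reads gave 1068 interactions and an offset of 1 gave 1165; 968 of the 1303 passed under both. Centring libraries on their median gene shifted the median WT step by -0.17 and the median P14 step by -0.10 and gave 1315 interactions, 720 of them positive, against 575 of 1303; equal totals shifted them by 0.10 and 0.08 and gave 967. Deviations of same-numbered libraries correlated at -0.157 to 0.207 over pairs of groups. With 2 libraries per group this cannot show whether same-numbered libraries share a batch or culture. With the replicate block 1298 interactions passed, and Cdx2 and Hoxc4 no longer did. The cause of these changes was not tested, other than that fewer libraries enter the smaller fits. With 2 libraries per group, changes in genes with few reads are the least certain.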
